A study of Mus musculus with 6 samples.

Results

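The SLC25 genes encode the mitochondrial carrier family, and they were taken here as the protein-coding genes whose symbol is Slc25a followed by a number. The rule found 47 members among the 41721 genes of the count table, of which 20461 are protein-coding, and the description of 32 members names the carrier protein domain itself. The cells, MASMCs, were smooth muscle cells of the mouse abdominal aorta, grown in DMEM with fetal bovine serum, and all 6 cultures were treated with angiotensin II (Ang II), for which the labels give no dose or time. The paper's methods also name serum starvation of MASMCs for in vitro experiments, without singling out these cultures. In 3 libraries, the controls, the genotype was *Pdk4*fl/fl, with loxP sites around exons 4, 5 and 6 of *Pdk4* and no Cre, and in the other 3 it was *Pdk4*SMKO, the same floxed allele with the tamoxifen-inducible *Myh11*-creERT2 transgene of smooth muscle, which is Y-linked. The donor mice were male and 10 weeks old, and mice of both genotypes had received tamoxifen. No untreated cultures and no Cre-positive cultures without floxed *Pdk4* were among the 6 libraries, so Cre and the loss of *Pdk4* cannot be told apart. Nothing in the labels says that replicates came from separate mice, so p-values measure the spread between these libraries only.

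SLC25 carriers are small proteins that sit mostly in the inner mitochondrial membrane, which is otherwise closed to charged solutes. Most of them exchange one solute for another: ADP for ATP, phosphate for hydroxyl ions, malate for oxoglutarate, aspartate for glutamate, or a cytosolic cofactor for a matrix nucleotide. They set which substrates of respiration, amino acid metabolism, one-carbon metabolism and iron chemistry reach the matrix, beside the pyruvate that the PDK4 kinase keeps from being oxidised by pyruvate dehydrogenase. The ADP/ATP carriers and the phosphate carrier, which oxidative phosphorylation needs, are usually among the most abundant.

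Library totals ran from 16526044 to 22481670 counts. CPM values are counts over an effective library size, which is the library total times its TMM factor. They therefore do not sum to the same total in every library. The factors were 0.784 to 0.838 in *Pdk4*fl/fl and 1.21 to 1.26 in *Pdk4*SMKO libraries, which raises CPM in the former and lowers CPM in the latter. The floor used here, 3 counts, corresponds to 0.132 to 0.227 CPM. Counts on *Pdk4* were 570, 639 and 421 with *Pdk4*fl/fl and fewer, at 110, 182 and 141, with *Pdk4*SMKO. Of 10 smooth muscle markers, 5 rose and 3 fell in *Pdk4*SMKO cells, by the limits given below. Among all genes tested 32.8% rose and 26.5% fell, which stands beside every marker count here. *Myh11*, whose promoter drives the Cre, lay at only 0.613 ± 0.125 CPM (SD, n = 3) in controls against 2.39 ± 0.290 CPM (SD, n = 3) with the transgene. The libraries of the genotypes also differed in markers of other cells. The summed level of 8 mesothelial markers was 74.2 to 99.99 CPM in control cells and 723 to 1325 CPM in *Pdk4*SMKO cells. *Krt19* alone had a mean of 79.2 CPM in controls. All 7 tested rose, but *Upk3b*, *Upk1b*, *Wt1*, *Krt18* and *Lrrn4* had control means under 0.575 CPM, the limit of the count filter. Those genes passed on their level in *Pdk4*SMKO cells alone, so a fall could not be called for them. The same held for *Des* of the smooth muscle list and *Lum* of the fibroblast list, with control means of 0.129 and 0.300 CPM. Of 7 macrophage markers, 5 (*C1qa*, *C1qb*, *C1qc*, *Adgre1* and *Tyrobp*) had 0 counts in all 3 *Pdk4*fl/fl libraries but were over the floor in every *Pdk4*SMKO library, while *Cd68*, which made up most of the sum in controls, fell from 31.2 ± 8.78 to 4.29 ± 2.18 CPM (SD, n = 3), and the summed level ranged from 21.4 to 38.0 and from 11.6 to 37.3 CPM. The summed level of 6 fibroblast markers was 121 to 148 CPM and 283 to 612 CPM, of which *Dcn* alone had a mean of 92.7 and 434 CPM, and in that list 3 rose, *Dpt* fell (21.1 to 10.5 CPM) and *Pdgfra* and *Pi16* did not pass both limits. The summed level of 7 endothelial markers was 16.0 to 24.9 CPM and 3.23 to 6.67 CPM, of which *Kdr* alone had a mean of 16.5 and 2.96 CPM. Of the 3 tested, *Kdr* and *Vwf* fell and *Egfl7* did not pass both limits. *Cdh5* had at most 1 count in a library and *Cldn5* had 0. *Xist*, which is expressed from the inactive X chromosome of female cells, had 3, 4 and 5 counts without Cre but 610, 347 and 321 counts in the *Pdk4*SMKO libraries, which does not match male donors for all 6 libraries. These differences run along the genotypes, so every value below compares all that differs between the groups, and their part in the carrier values was not tested. In bulk RNA, fewer cells of a type and less RNA per cell cannot be told apart.

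The carriers split into a falling and a rising set rather than moving together. Of the 47 members, 40 passed edgeR's filter on low counts and were tested with its quasi-likelihood test, with Benjamini-Hochberg adjustment over the 14085 genes that passed. A gene is said to have risen or fallen in *Pdk4*SMKO cells where its adjusted p was under 0.05 and its change at least 2-fold. By this rule 28 members changed (70.0%), set against 59.3% of all genes tested. The 12 that fell are 30% of those tested, where 26.5% of all genes fell, and the 16 that rose are 40%, where 32.8% of all genes rose. Of the other 12, 6 had an adjusted p under 0.05 with a change under 2-fold and 6 did not pass the test. The genotypes did not overlap in CPM for 36 members (90.0%), 18 in each direction, as was so for 81.8% of all genes. Most genes of these libraries changed, so the counts say little of the family, and the values below concern which carriers moved which way. With libraries scaled by their size alone, which moved the median of all genes up by 0.60 on the log2 scale, 7 members fell and 19 rose. Under TMM scaling, used wherever no other is named, the members' median log2 fold change was 0.05, that of all genes tested 0.12, and the members ranged from -5.24 for *Slc25a33* to 2.83 for *Slc25a35*. Of the 40, *Slc25a35* and *Slc25a47* had a mean under the filter's 0.575 CPM in *Pdk4*fl/fl cells and so passed on their level in *Pdk4*SMKO cells alone.

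**Figure D1:**
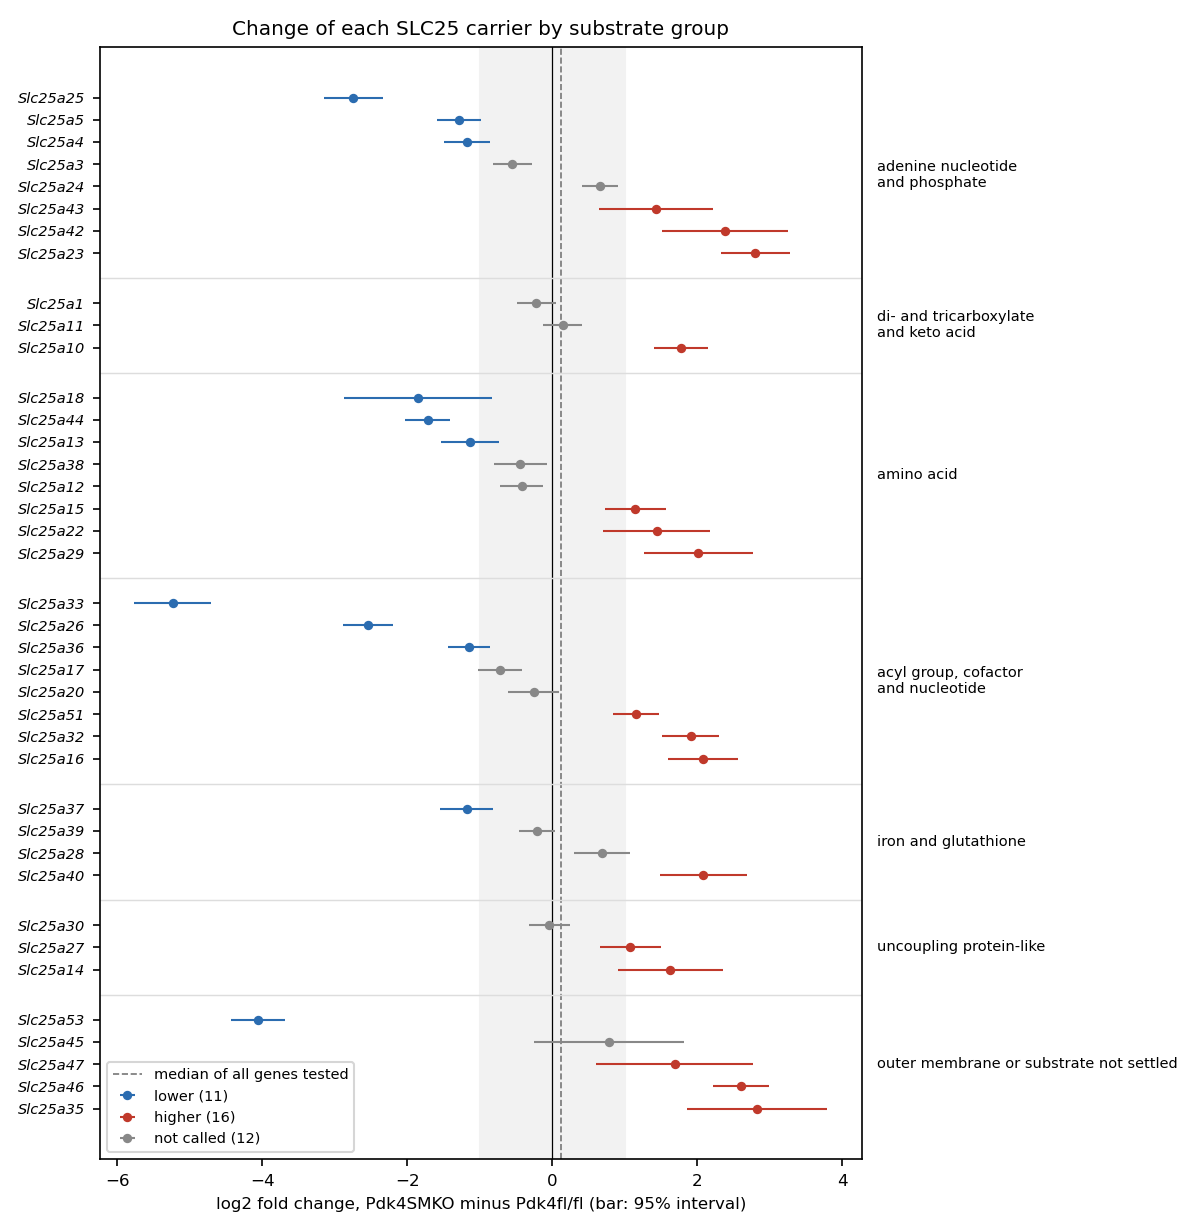
Log2 fold change (*Pdk4*SMKO minus *Pdk4*fl/fl, horizontal axis) of 39 of the 40 tested SLC25 members, grouped by substrate, with bars for the 95% interval of the edgeR fit; blue points fell (11), red points rose (16) and grey points did not pass both limits (12), the grey band marks changes under 2-fold and the dashed line the median of all genes tested (0.12). The groups of adenine nucleotide, amino acid and cofactor carriers each hold members that fell and members that rose, and over all groups drawn the points run from -5.24 for *Slc25a33* to 2.83 for *Slc25a35*.

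The steepest fall was that of *Slc25a33*, a carrier of pyrimidine nucleotides that exchanges UTP and related nucleotides across the inner membrane (chr4:159178595-159210955, minus strand). Positions here are those of the count table, whose identifiers belong to the C57BL/6NJ strain annotation although the submitters' processing notes name GRCm39. It had 64.6, 93.7 and 83.2 CPM in controls but 2.37, 1.44 and 2.55 CPM in *Pdk4*SMKO cells, from 969 to 1706 counts in the former and 29 to 54 in the latter. Its log2 fold change was -5.24 (SE 0.24, edgeR adjusted p = 4.12e-08), and the lowest *Pdk4*fl/fl library lay far above the highest *Pdk4*SMKO library. *Gm13068*, a gene annotated on the opposite strand of the same region, had 9, 20 and 14 counts against 0 in each *Pdk4*SMKO library. *Slc25a36*, the second carrier of pyrimidine nucleotides (chr9:101128859-101167899, minus strand), had 144, 165 and 181 CPM against 67.6, 71.7 and 81.3 CPM, without overlap. It fell less, by 1.15 on the log2 scale (SE 0.13, edgeR adjusted p = 1.86e-05), and under upper-quartile scaling (-0.94) and under library size alone (-0.54) it no longer reached 2-fold. *Gm16185*, which overlaps it, had up to 201 counts in a library, against at least 1440 for *Slc25a36*.

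The promoters of these carriers of pyrimidine nucleotides are shown because both hold an E-box, CACGTG, the motif bound by MYC and related factors, and both genes fell. They were chosen after the values were seen, and whether the motif bears on the falls was not tested. Each is the RefSeq window of GRCm38.p6 from 250 bases before to 50 bases after the start, 5′ to 3′ on the gene's strand, with the E-box in capitals. The E-box lies 8 bases before the start of *Slc25a33* (chr4:149774218-149774517, minus strand) and 187 bases before that of *Slc25a36* (chr9:97110992-97111291, minus strand).
Slc25a33: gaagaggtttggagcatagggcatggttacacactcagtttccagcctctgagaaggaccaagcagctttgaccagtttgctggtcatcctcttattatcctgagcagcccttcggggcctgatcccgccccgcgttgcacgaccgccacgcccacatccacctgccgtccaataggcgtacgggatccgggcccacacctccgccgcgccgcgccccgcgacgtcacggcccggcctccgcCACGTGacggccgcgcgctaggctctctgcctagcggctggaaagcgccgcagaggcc
Slc25a36: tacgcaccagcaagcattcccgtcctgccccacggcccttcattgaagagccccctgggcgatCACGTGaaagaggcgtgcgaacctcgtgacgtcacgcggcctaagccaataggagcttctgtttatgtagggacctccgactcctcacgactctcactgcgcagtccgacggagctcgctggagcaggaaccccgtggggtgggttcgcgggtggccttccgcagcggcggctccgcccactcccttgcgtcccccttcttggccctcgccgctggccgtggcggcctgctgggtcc
RefSeq windows were found for 36 of the 47 members, 46 windows in all among 32851. CACGTG, which reads the same on both strands, stood in 8 of the 46 (17.4%) and in 7.15% of all windows. Among members that fell it stood in 3 of 11 windows, which cover 8 of the 12 genes. These were *Slc25a13* and the pyrimidine carriers picked above, so this share is no separate support. Among those that rose it stood in 3 of 17 windows, which cover 11 of the 16 genes. These were overlapping windows of *Slc25a14* and a window of *Slc25a15*. The GC box GGGCGG, searched on both strands, stood in 38 of the 46 windows (82.6%) and in 35.7% of all, and the members' windows were richer in G and C, with a median of 59.3% against 52.7%. The ETS motif CCGGAAGT, on either strand, stood in 1 window (2.17%, against 3.89% of all). The amino acid response motif TGATGNAA, on either strand, was in 0 of the 46 windows and in 3.97% of all, which says only that these letters are not in these windows.

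**Figure D2:**
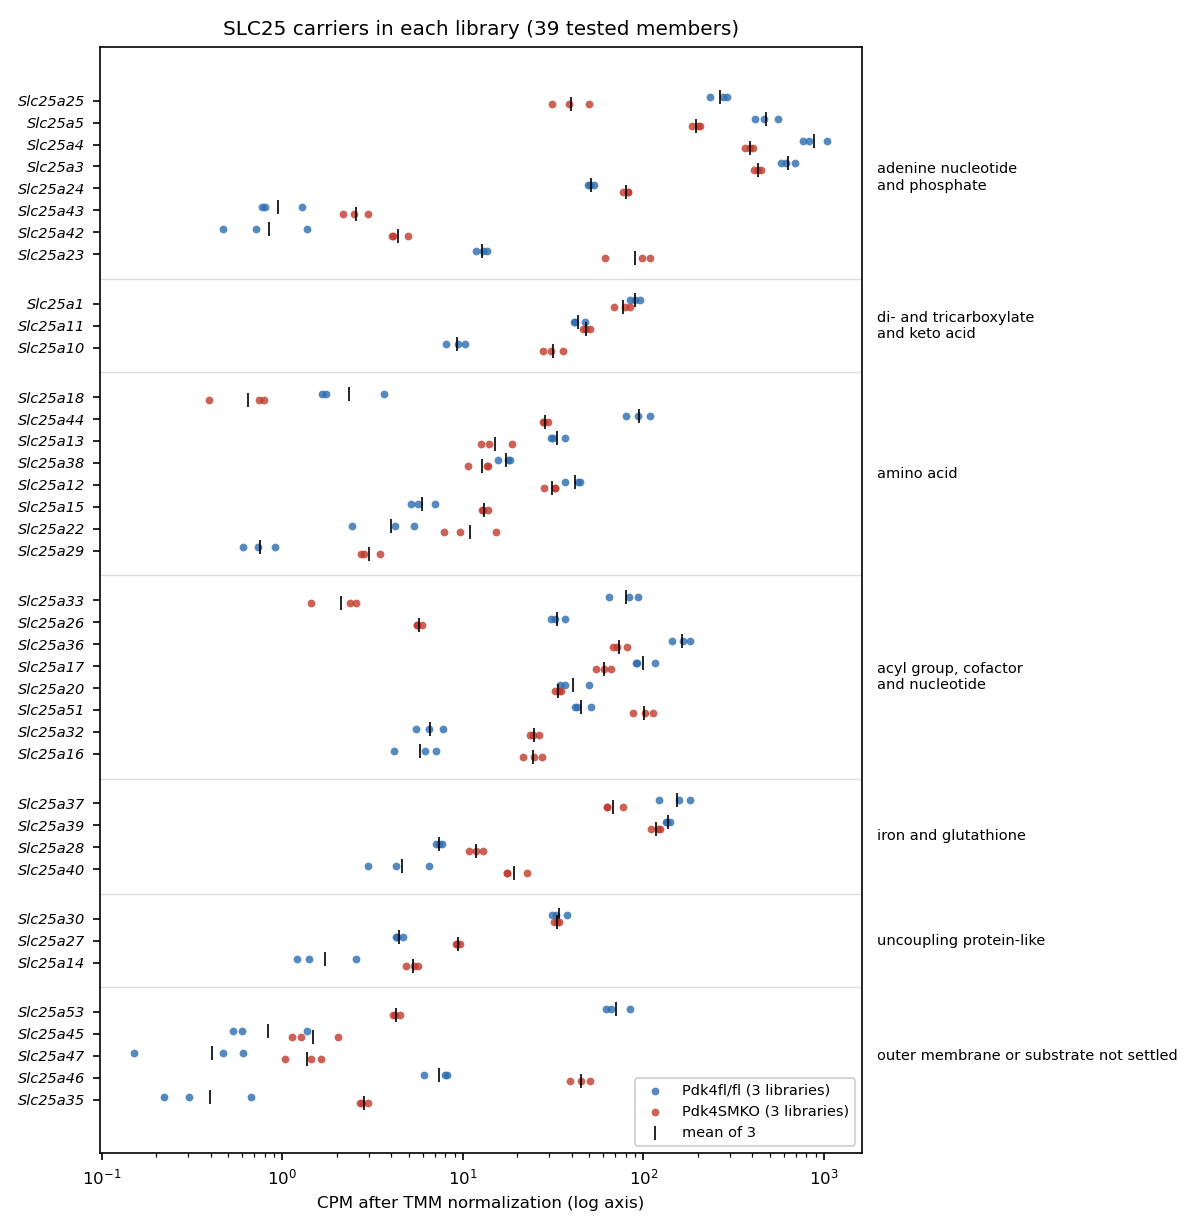
CPM after TMM normalization (horizontal axis, logarithmic) of 39 of the 40 tested SLC25 members in each library, by substrate group; blue points are the 3 *Pdk4*fl/fl and red points the 3 *Pdk4*SMKO libraries, and black ticks are means of 3. The family spans from under 1 CPM to 1043 CPM, and *Slc25a33* and *Slc25a53* show the widest gaps between the genotypes to the left, *Slc25a23* and *Slc25a46* wide gaps to the right.

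Carriers of adenine nucleotides and phosphate include the most abundant members, and the ADP/ATP carriers of this group fell in *Pdk4*SMKO cells. Of 11 members in this group 8 were tested, 3 fell and 3 rose, where 26.5% of all genes tested fell and 32.8% rose. *Slc25a4*, the ADP/ATP carrier of heart and muscle (chr8:47005541-47010028, minus strand), had 770, 825 and 1043 CPM in control cells and 406, 390 and 367 CPM in *Pdk4*SMKO cells. It fell by 1.18 on the log2 scale (SE 0.14, edgeR adjusted p = 2.72e-05), but its log2 fold change was -0.97 under upper-quartile scaling and -0.57 under library size alone. *Slc25a5*, the ADP/ATP carrier of most proliferating cells (chrX:32342418-32347027, plus strand), had 466, 413 and 560 CPM against 205, 185 and 201 CPM. It fell by 1.29 on the log2 scale (SE 0.14, edgeR adjusted p = 1.16e-05), or by 0.68 under library size alone. Counts of *Slc25a5* are less certain than others, since 12 processed pseudogenes resemble it. Of these only 2 had over 3 counts in any library, with 64, 70 and 68 against 68, 48 and 41 counts and 15, 15 and 19 against 11, 3 and 10 counts, where *Slc25a5* had 3721 to 7526. *Slc25a3*, which brings phosphate and copper into the matrix (chr10:95462443-95469928, minus strand), had 580, 617 and 693 CPM against 449, 412 and 429 CPM. Its libraries did not overlap, yet the difference of -0.55 (SE 0.12, edgeR adjusted p = 0.00168) was under 2-fold, and it stood at 0.06 under library size alone. *Slc25a31*, the ADP/ATP carrier of germ cells, had at most 1 count in a library.

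The calcium-regulated ATP-Mg/phosphate carriers, which adjust the matrix pool of adenine nucleotides when cytosolic calcium rises, moved in opposite directions. *Slc25a25* (chr2:31825143-31862843, minus strand) was the most abundant of them in *Pdk4*fl/fl cells, at 275, 291 and 234 CPM, and had 49.7, 38.7 and 31.0 CPM in *Pdk4*SMKO cells. It fell by 2.74 on the log2 scale (SE 0.18, edgeR adjusted p = 4.07e-07). *Naif1*, which overlaps it, had up to 181 counts where *Slc25a25* had at least 632. *Slc25a23* (chr17:61059906-61092512, minus strand), from 13.0, 11.8 and 13.6 CPM, reached 61.3, 109 and 98.1 CPM, a rise of 2.80 (SE 0.21, edgeR adjusted p = 1.03e-06), with *Pdk4*SMKO replicate 1 the lowest of its group. *Slc25a24* (chr3:114826206-114870275, plus strand) had 50.4, 53.5 and 49.6 CPM against 81.9, 77.4 and 82.4 CPM, a difference of 0.66 (SE 0.11, edgeR adjusted p = 0.000322) that was under 2-fold but 1.26 under library size alone. The order of their levels per kilobase of gene model thus turned from *Slc25a25* (33.9 CPM per kb), *Slc25a24* (14.9) and *Slc25a23* (2.42) in *Pdk4*fl/fl cells to *Slc25a24* (23.5), *Slc25a23* (16.9) and *Slc25a25* (5.06) in *Pdk4*SMKO cells. *Slc25a41*, another of these carriers, had at most 1 count in a library and *Slc25a54* at most 2. *Slc25a42*, which imports coenzyme A in exchange for adenine nucleotides, rose from 0.848 ± 0.462 to 4.37 ± 0.511 CPM (SD, n = 3). *Slc25a43* rose from 0.952 ± 0.290 to 2.54 ± 0.416 CPM (SD, n = 3).

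Carriers of dicarboxylates, tricarboxylates and keto acids link the matrix to cytosolic malate, citrate and oxoglutarate. Of the 4 members 3 were tested and only *Slc25a10* passed both limits, as did 59.3% of all genes tested. *Slc25a10*, the dicarboxylate carrier that exchanges malate or succinate for phosphate (chr11:128738486-128745834, plus strand), had 8.07, 9.39 and 10.2 CPM in control cells and 27.9, 35.8 and 30.9 CPM in *Pdk4*SMKO cells. It rose by 1.77 on the log2 scale (SE 0.17, edgeR adjusted p = 4.24e-06), with all 3 *Pdk4*SMKO libraries above all 3 controls. *Slc25a1*, which exports citrate for lipid synthesis, stood at 90.0 ± 5.80 and 77.4 ± 7.69 CPM (SD, n = 3), with a difference of -0.22 whose 95% interval ran from -0.49 to 0.06. *Slc25a11*, the oxoglutarate carrier of the malate-aspartate shuttle, stood at 43.7 ± 3.55 and 48.2 ± 1.97 CPM (SD, n = 3), a difference of 0.14 with an interval from -0.13 to 0.41. It shares its region with *Rnf167*, which had up to 370 counts. *Slc25a21*, the oxoadipate carrier, had at most 1 count in a library. Among enzymes that use exported citrate, *Fasn*, the fatty acid synthase, fell from 935 to 330 CPM, and the other 3 of 4 did not pass both limits.

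Of the 9 amino acid carriers 8 were tested, 3 fell and 3 rose, where 26.5% of all genes tested fell and 32.8% rose. The carriers of glutamate with a proton moved in opposite directions. These are *Slc25a18* and *Slc25a22*. *Slc25a18* (chr6:126853628-126881305, plus strand) had 3.67, 1.65 and 1.74 CPM in control cells and 0.790, 0.746 and 0.392 CPM in *Pdk4*SMKO cells, a fall of 1.85 on the log2 scale (SE 0.46, edgeR adjusted p = 0.00363) that rests on 8 to 55 counts per library. It overlaps *Atp6v1e1*, which had up to 3861 counts, and how reads in shared stretches were assigned is not given in the sources used here. *Slc25a22* (chr7:151969748-151977896, minus strand) had 5.33, 4.23 and 2.42 CPM against 15.2, 9.60 and 7.85 CPM, a rise of 1.44 (SE 0.33, edgeR adjusted p = 0.00234) without overlap. *Slc25a29*, a carrier of basic amino acids such as arginine and lysine (chr12:114399098-114409108, minus strand), rose from 0.733, 0.604 and 0.908 CPM to 3.47, 2.74 and 2.85 CPM, by 2.02 (SE 0.34, edgeR adjusted p = 0.000283). *Slc25a15*, the ornithine carrier of the urea cycle, rose as well, from 5.95 ± 0.948 to 13.1 ± 0.599 CPM (SD, n = 3), while its relative *Slc25a2* had at most 8 counts in a library and was not tested.

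*Slc25a44*, a carrier of branched-chain amino acids, fell from 93.9 ± 14.3 to 28.6 ± 1.01 CPM (SD, n = 3), by 1.72 on the log2 scale. The aspartate/glutamate carriers feed the malate-aspartate shuttle, and *Slc25a13* (chr6:2981801-3173243, minus strand) fell from 36.8, 31.4 and 31.0 CPM to 18.7, 12.5 and 13.9 CPM, by 1.14 (SE 0.18, edgeR adjusted p = 0.000174). That fall was 0.92 under upper-quartile scaling and 0.53 under library size alone, so the call rests on the scaling. *Slc25a12*, its paralog of muscle and brain (chr2:73512034-73624718, minus strand), had 43.3, 44.8 and 36.6 CPM against 32.5, 32.3 and 28.2 CPM, a difference of -0.42 (SE 0.13, edgeR adjusted p = 0.0151) under 2-fold. *Slc25a38*, the glycine carrier that heme synthesis needs, stood at 17.2 ± 1.34 and 12.7 ± 1.73 CPM (SD, n = 3), a difference of -0.44, also under 2-fold.

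Of the 9 carriers of acyl groups, cofactors and nucleotides, 4 fell and 3 rose, where 26.5% of all genes tested fell and 32.8% rose. Beside the pyrimidine carriers, *Slc25a26*, which imports S-adenosylmethionine for methylation in the matrix, fell from 33.3 ± 3.04 to 5.70 ± 0.199 CPM (SD, n = 3), by 2.54. It shares its region with *Lrig1*, which had up to 1971 counts. Carriers of other cofactors rose. *Slc25a16*, linked to the import of coenzyme A (chr10:64640168-64668818, plus strand), went from 6.13, 4.17 and 7.11 CPM to 21.5, 24.6 and 27.3 CPM, a rise of 2.08 (SE 0.22, edgeR adjusted p = 8.99e-06). *Slc25a32*, which imports folate or FAD, rose from 6.60 ± 1.16 to 24.8 ± 1.42 CPM, and *Slc25a51*, the NAD+ importer, from 45.3 ± 5.39 to 101 ± 12.8 CPM (SD, n = 3). *Slc25a20*, which exchanges carnitine for acylcarnitine in fatty acid oxidation, stood at 40.5 ± 8.36 and 33.8 ± 1.22 CPM (SD, n = 3). Its groups overlapped, and the difference of -0.26 had a 95% interval from -0.61 to 0.09. *Slc25a17*, which carries cofactors across the peroxisomal membrane (chr15:84931970-84975460, minus strand), had 92.6, 91.0 and 116 CPM against 54.7, 60.8 and 66.2 CPM, a difference of -0.72 (SE 0.14, edgeR adjusted p = 0.000743) under 2-fold.

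The 4 carriers of iron and glutathione form pairs, and in each pair 1 member passed both limits, as did 59.3% of all genes tested. Mitoferrins bring iron to heme and iron-sulfur cluster synthesis. *Slc25a37*, mitoferrin 1 of blood-forming cells (chr14:66933063-66978984, minus strand), had 182, 157 and 121 CPM in control cells and 77.1, 63.1 and 63.1 CPM in *Pdk4*SMKO cells. It fell by 1.18 on the log2 scale (SE 0.16, edgeR adjusted p = 7.72e-05), or by 0.97 under upper-quartile scaling and 0.58 under library size alone. *Slc25a28*, the widely expressed mitoferrin 2 (chr19:44141744-44152773, minus strand), had 7.33, 7.63 and 7.11 CPM against 13.0, 10.8 and 11.9 CPM, a difference of 0.69 (SE 0.17, edgeR adjusted p = 0.00408) under 2-fold that stood at 1.30 under library size alone. *Slc25a39* and *Slc25a40* bring glutathione into the matrix. *Slc25a39* (chr11:108666803-108671764, minus strand) had 135, 141 and 133 CPM against 123, 121 and 110 CPM, a difference of -0.21 with a 95% interval from -0.45 to 0.03. *Slc25a40* (chr5:5901566-5935833, plus strand) rose from 4.27, 2.97 and 6.51 CPM to 17.6, 17.5 and 22.7 CPM, by 2.09 (SE 0.27, edgeR adjusted p = 4.74e-05).

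Of the 3 relatives of the uncoupling proteins, 2 rose, where 32.8% of all genes tested rose. *Slc25a14* (chrX:44817754-44861603, plus strand) rose from 1.40, 1.21 and 2.57 CPM to 5.36, 4.83 and 5.64 CPM, by 1.63 on the log2 scale (SE 0.32, edgeR adjusted p = 0.000928). *Slc25a27* rose from 4.41 ± 0.224 to 9.34 ± 0.243 CPM (SD, n = 3). *Slc25a30* (chr14:73703224-73729674, minus strand) had 37.6, 33.0 and 31.2 CPM against 31.8, 33.2 and 34.0 CPM. Its groups overlapped, and the difference of -0.04 had a 95% interval from -0.33 to 0.25.

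Among the 7 members of the outer membrane or without a settled substrate, 5 were tested, 1 fell and 3 rose. The shares of all genes tested were 26.5% and 32.8%. *Slc25a53* (chrX:138326015-138389711, minus strand) had 62.2, 66.5 and 83.9 CPM in control cells and 4.08, 4.18 and 4.46 CPM in *Pdk4*SMKO cells. It fell by 4.06 on the log2 scale (SE 0.17, edgeR adjusted p = 2.62e-08), second only to *Slc25a33* among the 40 members tested, and the SD of the 3 *Pdk4*SMKO libraries was 0.198 CPM. *Zcchc18*, which overlaps it, had up to 46 counts in a library, against 84 to 93 of *Slc25a53* in *Pdk4*SMKO cells. *Slc25a46*, a protein of the outer mitochondrial membrane that takes part in fission and cristae upkeep, had 8.13, 6.09 and 7.95 CPM against 45.0, 39.2 and 50.7 CPM. That rise of 2.61 (SE 0.17, edgeR adjusted p = 4.03e-07) was the largest among members with at least 30 CPM in *Pdk4*SMKO cells after *Slc25a23*. *Slc25a35* (chr11:71470582-71476898, plus strand) rose from 0.667, 0.220 and 0.303 CPM to 2.77, 2.99 and 2.70 CPM, by 2.83 (SE 0.43, edgeR adjusted p = 0.000152), from only 4 to 10 counts in the control libraries. *Slc25a47*, a carrier of liver, rose from 0.407 ± 0.232 to 1.37 ± 0.313 CPM, and *Slc25a45* stood at 0.834 ± 0.468 and 1.48 ± 0.490 CPM (SD, n = 3), with overlap. *Slc25a34* had at most 13 counts in a library, and *Slc25a48* had 0 counts in each *Pdk4*fl/fl library against 11, 0 and 2. Of the members, 4 lie on the X chromosome, where *Slc25a5* and *Slc25a53* fell and *Slc25a14* and *Slc25a43* rose.

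Because a ratio of 2 genes within a library does not depend on the scaling, 9 pairs of paralogs with both genes tested were compared by the log2 ratio of their counts per kilobase. Dividing by the length of the gene models moves all libraries of a pair by the same amount. It changes which gene of a pair stands above the other, but not the shift between genotypes. In 8 of the 9 pairs the ratios of the genotypes did not overlap, in libraries where 81.8% of single genes did not overlap either. An exact two-sided permutation test of 3 libraries against 3 cannot give less than p = 0.1, which each of these 8 pairs had, with a permutation p adjusted over the 9 pairs of 0.112. The largest shift was that of the pyrimidine carriers. Per kilobase, *Slc25a33* stood above *Slc25a36* in *Pdk4*fl/fl cells, with ratios of 1.98, 2.33 and 2.02, and below it in *Pdk4*SMKO cells, with -1.69, -2.49 and -1.85. That change of order rests on gene models of 1085 and 9585 bases. In counts not divided by length *Slc25a33* was below *Slc25a36* in both genotypes, at -1.16, -0.82 and -1.12 against -4.83, -5.63 and -4.99. *Slc25a24* over *Slc25a25* turned the other way, from -1.25, -1.25 and -1.04 to 1.92, 2.20 and 2.61. *Slc25a23* over *Slc25a24* went from -2.58, -2.81 and -2.49 to -1.04, -0.13 and -0.37, which brought the carriers close to each other. The glutamate carriers also changed places per kilobase, *Slc25a18* over *Slc25a22* going from 1.11, 0.29 and 1.17 to -2.62, -2.04 and -2.67, with the overlap of *Slc25a18* and *Atp6v1e1* to be kept in mind. In counts not divided by length *Slc25a18* was below *Slc25a22* in both genotypes, with mean log2 ratios of -0.79 and -4.09.

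In 4 other pairs the ratio per kilobase moved toward equal levels. *Slc25a39* over *Slc25a40* fell from a mean log2 ratio of 6.58 to 4.23, where the lowest library had 3.88. Mitoferrin 2 over mitoferrin 1 went from -2.39 to -0.54, and *Slc25a14* over *Slc25a30* from -4.84 to -3.12. *Slc25a12* over *Slc25a13* went from -0.72, -0.44 and -0.71 to -0.15, 0.42 and 0.07. In counts not divided by length, the mean ratio of that pair moved away from equal levels, from 0.33 to 1.06. For the ADP/ATP carriers the ratios overlapped. *Slc25a4* over *Slc25a5* was 0.23, 0.50 and 0.40 in control cells and 0.49, 0.58 and 0.37 in *Pdk4*SMKO cells (exact permutation p = 0.5, n = 3 per genotype). The difference of 0.10 ranged from 0.03 to 0.17 when each library was left out in turn.

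**Figure D3:**
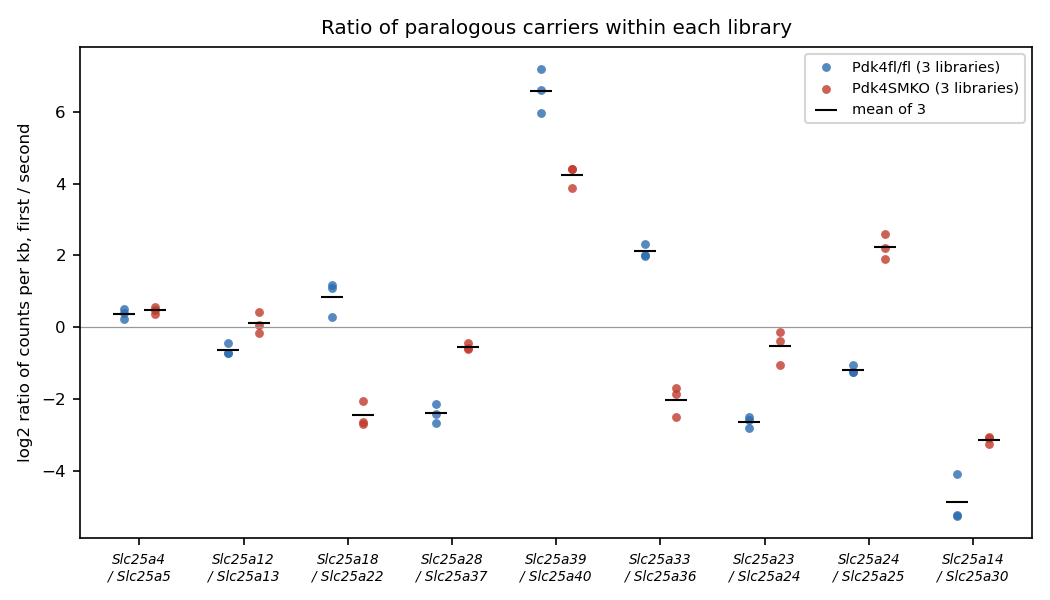
Log2 ratio of counts per kilobase of the first over the second paralog (vertical axis) in each library for the 9 pairs tested; blue points are the 3 *Pdk4*fl/fl and red points the 3 *Pdk4*SMKO libraries, black bars are means of 3, and 0 means equal levels. The genotypes stand apart in every pair but *Slc25a4* over *Slc25a5*, and the pair *Slc25a33* over *Slc25a36* crosses 0 from a mean of 2.11 to -2.01. In counts not divided by length the mean of that pair went from -1.03 to -5.15, without crossing 0.

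Summed over all 47 members, the carriers took 3423, 3532 and 3913 CPM in control cells and 2174, 2148 and 2155 CPM in *Pdk4*SMKO libraries. The sum was thus lower in all 3 *Pdk4*SMKO libraries (exact permutation p = 0.1, n = 3 per genotype, the smallest this design allows). As a share of all counted reads, which involves no TMM factor, the gap was narrower. The shares were 0.293 ± 0.0115% and 0.266 ± 0.00618% (SD, n = 3), still without overlap. The gap in summed CPM thus rests largely on the TMM factors. Per kilobase of gene model, the 3 most abundant carriers dominated the family. *Slc25a4*, *Slc25a5* and *Slc25a3* together made up 61.8% of the summed CPM per kb in control cells and 51.8% in *Pdk4*SMKO cells. *Slc25a4* went from 29.7% to 23.7% and *Slc25a5* from 22.9% to 17.0%, while *Slc25a3*, which fell short of 2-fold, went from 9.07% to 11.1%. The order of these 3 was the same in both genotypes, at 374, 288 and 114 CPM per kb in control cells and 165, 118 and 77.5 in *Pdk4*SMKO cells. The place after them was held by *Slc25a33* in *Pdk4*fl/fl cells (74.2 CPM per kb), where it ranked 4 of 47, and it ranked 30 in *Pdk4*SMKO cells (1.96 CPM per kb). *Slc25a17* and *Slc25a39* ranked 5 and 6 in *Pdk4*fl/fl cells at 59.9 and 49.5 CPM per kb and 5 and 4 in *Pdk4*SMKO cells at 36.3 and 42.8.

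**Figure D4:**
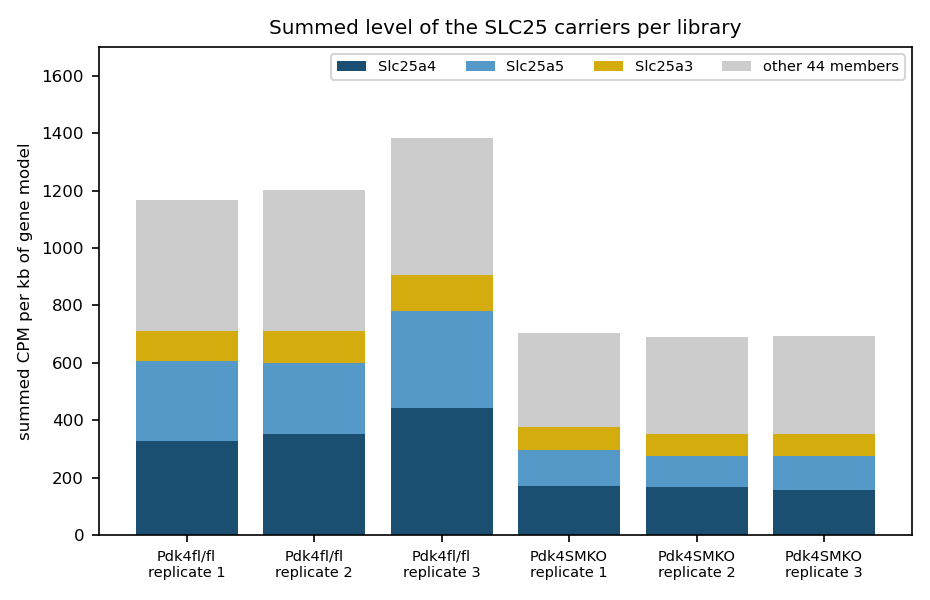
Summed CPM per kilobase of gene model of the 47 SLC25 members in each library, stacked as *Slc25a4*, *Slc25a5*, *Slc25a3* and the other 44 members. The *Pdk4*fl/fl libraries reach 1169 to 1385 and the *Pdk4*SMKO libraries 691 to 702, and the dark and light blue parts of the ADP/ATP carriers shrink the most. These heights include the TMM factors, which raise the sums of the *Pdk4*fl/fl libraries and lower those of the *Pdk4*SMKO libraries.

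Abundant carriers tended to be lower and scarce ones higher. Of the 7 tested members with a mean of at least 100 CPM over the 6 libraries, 5 fell and the other 2 were *Slc25a3* and *Slc25a39*. Of the 12 members between 0 and 10 CPM, 9 rose, and *Slc25a18* fell. Across the 40 members, the Spearman correlation between mean CPM and log2 fold change was -0.52, and across all 14085 genes tested it was -0.28. All genes leaned the same way, with 47.9% of those at 100 CPM or more falling and 15.3% rising. Genes are not independent replicates and share libraries and scaling, so these values are a description.

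**Figure D5:**
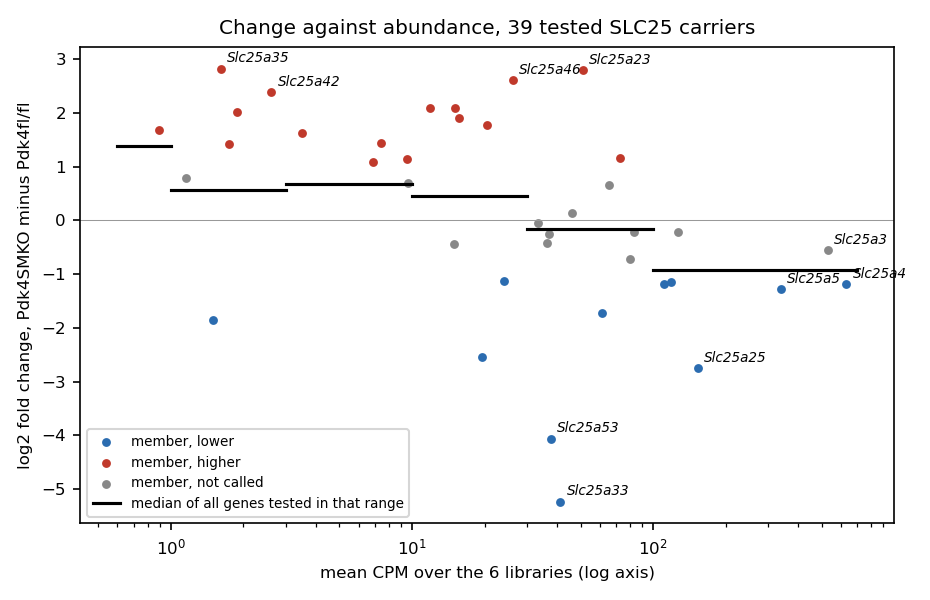
Log2 fold change (*Pdk4*SMKO minus *Pdk4*fl/fl, vertical axis) against mean CPM over the 6 libraries (horizontal axis, logarithmic) of 39 of the 40 tested SLC25 members; blue points fell, red points rose, grey points did not pass both limits, and black bars give the median of all genes tested in each range of CPM. The members at 100 CPM or more all lie below 0, where the bar for all genes stands at -0.91; under library size alone *Slc25a3* (0.06) and *Slc25a39* (0.40) lie above 0.

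The machinery around the carriers was examined through lists of related genes. Among all genes tested 26.5% fell and 32.8% rose, so the counts of changed genes in these lists say little by themselves. Of 5 SLC25 family genes that carry other names, 3 were tested, and *Mtch2*, an outer membrane insertase, fell from 260 ± 54.8 to 122 ± 15.6 CPM (SD, n = 3). Uncoupling protein *Ucp2* stood at 0.755 ± 0.578 and 1.54 ± 0.392 CPM (SD, n = 3), with overlap. Among 14 tested genes that import carriers into the inner membrane, 5 fell (35.7%) and 1 rose (7.14%), with a median of -0.33. *Tomm20*, a receptor of the outer membrane translocase, fell from 657 ± 147 to 167 ± 10.8 CPM (SD, n = 3). *Tomm70a* stood higher, at 48.9 ± 2.35 and 92.9 ± 3.41 CPM (SD, n = 3), a difference of 0.92 under 2-fold without overlap. Of the small chaperones of the space between the membranes, *Timm10* and *Timm8b* fell by 1.89 and 1.59 on the log2 scale. *Timm9* (0.19), *Timm13* (-0.18) and *Timm10b* (-0.12) had overlapping groups. *Agk*, a subunit of the TIM22 complex that inserts carriers, rose from 2.28 ± 0.140 to 8.81 ± 0.878 CPM (SD, n = 3), while *Timm22*, its channel, stood at 26.4 and 22.5 CPM with overlap.

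Other transporters of the mitochondrial membranes were mixed, with 4 of 23 lower (17.4%) and 6 higher (26.1%), both under the shares of all genes. *Vdac2*, a pore of the outer membrane, fell from 558 ± 81.5 to 221 ± 6.52 CPM, and *Sfxn1*, a serine carrier outside the SLC25 family, rose from 26.0 ± 3.41 to 128 ± 21.4 CPM (SD, n = 3). *Sfxn5* rose by 3.04 on the log2 scale and *Micu3*, a regulator of the calcium uniporter, fell by 2.42. The pyruvate carrier subunit *Mpc1*, not an SLC25 gene, stood at 16.1 ± 0.451 and 8.87 ± 1.11 CPM (SD, n = 3), a difference of -0.86 under 2-fold, and *Mpc2* at 37.5 ± 14.2 and 32.8 ± 4.02 CPM (SD, n = 3), with overlap.

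Enzymes that work with particular carriers were read beside them, where 26.5% of all genes tested fell and 32.8% rose. Of the 4 malate-aspartate shuttle enzymes, *Got2* fell from 911 ± 73.1 to 180 ± 18.1 CPM and *Got1* from 130 ± 8.25 to 34.8 ± 3.93 CPM (SD, n = 3). *Mdh2* (-0.89) stayed under 2-fold, and *Mdh1* (0.32) had overlapping groups. Among the shuttle's carriers *Slc25a13* fell, though not past 2-fold under upper-quartile scaling or library size alone. *Slc25a12* (-0.42) and *Slc25a11* (0.14) did not pass both limits. Of 9 mitochondrial one-carbon and glycine enzymes, which use the folate and glycine that *Slc25a32* and *Slc25a38* carry, 4 fell and 2 rose. *Mthfd2*, the methylene-tetrahydrofolate dehydrogenase of the matrix, fell from 215 ± 5.68 to 22.4 ± 8.71 CPM (SD, n = 3), and *Aldh1l2* by 3.05 on the log2 scale, whereas *Slc25a32* rose. Of 4 tested enzymes of the carnitine shuttle around *Slc25a20*, 3 rose. *Cpt2*, on the matrix side, went from 1.91 ± 0.493 to 15.3 ± 0.114 CPM and *Cpt1a*, on the outer membrane, from 82.3 ± 9.27 to 169 ± 5.68 CPM (SD, n = 3). Of 7 proline, ornithine and polyamine enzymes, 3 fell and 1 rose. *Odc1*, which makes putrescine from ornithine, fell from 314 ± 11.6 to 32.5 ± 2.83 CPM (SD, n = 3), *Arg2* by 4.01, and *Prodh*, which oxidises proline, rose by 4.57 from 0.317 CPM. Of 8 enzymes of mitochondrial iron use only *Nfs1*, the cysteine desulfurase of iron-sulfur clusters, rose, from 6.70 ± 0.464 to 30.5 ± 0.930 CPM (SD, n = 3), and the other 7 did not pass both limits.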

How the data were processed

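RNA of 6 MASMC cultures was sequenced, and the authors deposited raw counts, whole numbers of reads per gene, in 1 table that also holds the length of each gene model. The deposited gene lengths were used for values per kilobase. The aligner, the counting program and the use of strand are not given in the sources used here, the paper names another library kit than the labels, and the submitters' processing notes name GRCm39 although the identifiers are those of the C57BL/6NJ strain annotation. Groups are the genotypes given by the labels. Counts were filtered with filterByExpr, scaled by TMM and tested on genotype with the quasi-likelihood test of edgeR 4.0.16 in R 4.3.3, with Benjamini-Hochberg adjustment, after the fit was tested on simulated data. Library totals are given in the report, and floors of 3 counts cover counting error only. DESeq2 1.42.0, the tool named by the study's methods, other scalings, filters and thresholds, the replicate number as a block and leaving out each library were alternatives, and leaving out libraries or adding 0.5 to the counts for the paralog ratios were added after the data were seen. The members, gene lists and tests were chosen with earlier results of these data known. Values per library are given for *Pdk4*, both genes of each tested pair of paralogs, the 5 members with the highest mean CPM per kb and, in each substrate group, the called members with the most negative and most positive log2 fold change, with *Slc25a46* added after the values were seen. Lists of related genes are named with up to 4 genes, those changed most and the most abundant, and marker lists with more. *Mpc1*, *Mpc2*, *Ucp2*, *Timm22*, *Timm9*, *Timm13*, *Timm10b*, *Tomm70a*, *Mdh1* and *Mdh2* were added to these after the values were seen. Genes at 0 were given no fitted fold. Promoter windows came from RefSeq (GRCm38.p6). Values of 1 member are not reported here; it enters the counts and sums but no plot of single members.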

Additional observations from a re-analysis of the deposited data

How the results depend on the processing

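The number of members past both limits stayed between 24 and 29 under the alternatives that kept a fold limit and was 34 without one. Of the 40 tested members, 25 kept their direction and their call under each alternative fit that tested them, and the fit with at least 10 counts in every library did not test *Slc25a18*, *Slc25a35*, *Slc25a42*, *Slc25a45* and *Slc25a47*. DESeq2 called 28 members, 12 lower and 16 higher, as did RLE scaling and the fit with a replicate block, which changed no member's call. Same-numbered libraries of the genotypes correlated in their deviations at r = 0.04, 0.06 and 0.18, and not every library correlated best with its own number. Deviations from a mean of 3 libraries depend on each other, so this check cannot tell whether same-numbered libraries were prepared together. Upper-quartile scaling shifted the median of all genes by 0.21 and library size alone by 0.60 on the log2 scale. Members that fell then numbered 8 and 7, against 12, with 16 and 19 higher, and all genes went from 3733 lower and 4616 higher to 2390 and 6184 under library size alone. The calls of *Slc25a4*, *Slc25a13*, *Slc25a36* and *Slc25a37* were lost under both scalings and that of *Slc25a5* under library size alone. The median log2 fold change of the members moved from 0.05 to 0.26 and 0.66 under these scalings, to 0.70 over 47 members with no filter and to -0.11 over the 35 with at least 10 counts in every library, where those 5 are left out. Without single libraries it ranged from 0.00 to 0.09. Directions turned for members that had not passed both limits. Under library size alone the log2 fold change became 0.35 for *Slc25a20*, 0.058 for *Slc25a3*, 0.18 for *Slc25a12*, 0.17 for *Slc25a38*, 0.39 for *Slc25a1*, 0.40 for *Slc25a39* and 0.56 for *Slc25a30*, and *Slc25a24*, *Slc25a28* and *Slc25a45* rose past 2-fold, at 1.26, 1.30 and 1.38. Under upper-quartile scaling *Slc25a39* stood at 0.0017 and *Slc25a30* at 0.17. *Slc25a30* stood at 0.0093 with no filter and at 0.060 with at least 10 counts, and between -0.11 and 0.038 when single libraries were left out, the latter without *Pdk4*fl/fl replicate 1. *Slc25a45* was called higher without *Pdk4*fl/fl replicate 2 (1.38). The fall of *Pdk4* was 1.74 under library size alone against 2.34.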
